A study of Mus musculus with 91 samples.

Results

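The genes described here are 38 genes of DNA replication and mitosis, chosen by name as a list of cell-cycle genes and followed in epididymal white adipose tissue (WAT), mesenteric WAT and liver. Of the 38 genes, 36 had a probe with their symbol on the Illumina MouseWG-6 v2 array, out of 19057 genes named on it, and each gene was read from its brightest probe. No probe was named for Mki67, the usual proliferation marker, or for Ccnb1, a mitotic cyclin. Membership was set by gene name, in a list drawn up with earlier results of these data known.

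All mice were male C57BL/6J, were acclimated on the AIN-76 normal diet (ND), and were then fed either the high-fat diet (HFD), an AIN-76 diet enriched in fat with added cholesterol, or the ND. The HFD groups and the ND groups of epididymal WAT were taken after 2, 4, 8, 20 and 24 weeks of feeding, at 7, 9, 13, 25 and 29 weeks of age, with 3 arrays per diet and week, each of pooled RNA. Mesenteric WAT had 1 array per diet and week, of RNA pooled over all mice of the group. Liver had 3 arrays per diet at those 5 times and after 6, 12 and 16 weeks, at 11, 17 and 21 weeks of age. It also had 3 baseline arrays at week 0, at 5 weeks of age. How liver RNA was pooled is not given in the sources used here.

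A dividing cell copies its DNA once and then separates the copies. Licensing factors load the Mcm helicase onto origins, enzymes of nucleotide supply feed the forks, and the cyclin-dependent kinase Cdk1 then drives the cell into mitosis, where kinesins, centromere proteins and the spindle checkpoint part the chromosomes. Most of these transcripts are made only in cycling cells. Replication genes are under E2F, and mitotic genes under the DREAM and B-Myb-FoxM1 complexes, which bind a CHR element. CCAAT boxes, the sites of another factor, often stand near the CHR element. Mature adipocytes and hepatocytes of an adult mouse divide little, and macrophages can divide inside fat. In whole tissue, more cycling cells and more RNA per cycling cell cannot be told apart.

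The promoters of the genes were searched for the motifs of replication and of mitotic genes named above. A window of 250 bases before to 50 bases after the start site (RefSeq, GRCm38.p6) was matched for 33 of the 38 genes. The CHR element, searched as TTTGAA or TTTAAA on both strands, was present in 22 of the 33 windows (66.7%), against 27.6% of all 32851 windows. It stood in 9 of 10 windows of the chromosome and spindle genes and in 2 of 8 windows of the licensing genes. An E2F motif, searched as TTTCCCGC, TTTGGCGC, TTTGCCGC or TTTCGCGC on both strands, was present in 7 of 33 windows (21.2%), against 2.26% of all windows, and 6 of these 7 belonged to the licensing genes. The division was not complete: of the 4 windows of nucleotide supply 0 held an E2F motif and 2 a CHR element. Of the licensing genes, Mcm2 had a CHR element without an E2F motif, and Pcna had neither. The CCAAT box was present in 27 of 33 windows (81.8%), against 37.4% of all windows. E2F motifs of opposite strands can overlap in a site that reads as both. A match is a run of letters and was not tested as a bound site.

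The 160 bases before the start site are shown for 6 genes that are described below, with CHR elements, CCAAT boxes and E2F motifs of either strand in capitals.
Mcm5, chr8:75109349-75109508, plus strand: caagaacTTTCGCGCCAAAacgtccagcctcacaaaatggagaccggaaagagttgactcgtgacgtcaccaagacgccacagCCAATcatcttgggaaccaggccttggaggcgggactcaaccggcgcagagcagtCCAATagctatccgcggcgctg
Mcm6, chr1:128359706-128359865, minus strand: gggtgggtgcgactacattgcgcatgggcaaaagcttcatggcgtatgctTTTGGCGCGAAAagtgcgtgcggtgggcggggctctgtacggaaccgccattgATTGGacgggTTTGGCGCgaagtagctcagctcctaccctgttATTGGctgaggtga
Cdk1, chr10:69352913-69353072, minus strand: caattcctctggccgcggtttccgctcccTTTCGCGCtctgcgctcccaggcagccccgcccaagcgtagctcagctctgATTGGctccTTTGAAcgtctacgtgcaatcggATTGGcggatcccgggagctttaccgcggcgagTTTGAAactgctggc
Cdc20, chr4:118437344-118437503, minus strand: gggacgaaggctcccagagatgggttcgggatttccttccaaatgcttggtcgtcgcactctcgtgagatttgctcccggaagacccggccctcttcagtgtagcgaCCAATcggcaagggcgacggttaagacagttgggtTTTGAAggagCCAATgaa
Top2a, chr11:99024190-99024349, minus strand: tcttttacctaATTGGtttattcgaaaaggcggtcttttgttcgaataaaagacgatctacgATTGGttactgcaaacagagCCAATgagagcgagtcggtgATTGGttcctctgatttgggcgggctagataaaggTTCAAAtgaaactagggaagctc
Kif22, chr7:127042421-127042580, minus strand: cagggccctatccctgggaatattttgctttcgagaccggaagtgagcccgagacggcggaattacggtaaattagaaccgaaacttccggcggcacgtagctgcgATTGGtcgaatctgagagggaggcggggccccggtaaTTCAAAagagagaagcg
The replication genes Mcm5 and Mcm6 carry E2F motifs and no CHR element in this stretch. Cdk1, which acts at mitotic entry, carries an E2F motif, CHR elements and CCAAT boxes. The mitotic genes Cdc20, Top2a and Kif22 carry a CHR element close to the start site with 1 or more CCAAT boxes before it, and no E2F motif. Cdc20 has a further CCAAT box between the CHR element and the start site.

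Detection and array background differed between groups and are given before the results. With a detection p under 0.05 as the criterion, the 30 epididymal arrays detected 39.8% to 47.7% of probes, and 22 of the 36 genes were detected on all 30 arrays, 7 on some and 7 on none (Ccna2, Ccnb2, Cks2, Bub1, Ube2c, Cenpe and Kif20a). The background, taken as the 5th percentile of the intensities, separated the arrays: the 3 ND pools taken at 2 weeks and all 6 pools taken at 24 weeks had one of 110 to 121 intensity units, against 75.7 to 92.1 on the other 21 arrays, and the 9 arrays stood apart along the main principal component, which held 39.7% of the variance. At 2 weeks this array difference and the diet cannot be told apart, while at 20 weeks and at 24 weeks both diets lay on the same kind of array. Pool 1 of HFD 2 weeks carried testis and sperm transcripts (mean log2 intensity 11.29, against 8.35 and 7.5 in the other pools of the group), and pools 2 and 3 of HFD 4 weeks carried transcripts of epididymis epithelium (10.85 and 12.18, against 7.21 in pool 1). The ND pools of 4 weeks had testis transcripts at 8.35, 7.69 and 8.41, against means of 6.93 to 7.13 in the other ND groups. Their pools 2 and 3 had epididymis transcripts at 8.48 and 8.42, against 7.26 in pool 1. Pool 3 of HFD 4 weeks had testis transcripts at 8.47. The part of these transcripts in results that use the 4-week pools was not tested. Hepatocyte transcripts were raised in both 8-week groups, at 9.53 in HFD and 9.58 in ND. No pair of arrays within a group held identical values, and their correlations ran from 0.956 to 0.996 in epididymal WAT. Which animals went into each pool is not given in the sources used here, so that p-values measure the spread between these pools, which may be technical. Adipocyte genes averaged 12.0 to 12.52 in the epididymal groups and 10.9 to 11.97 in the mesenteric groups, and hepatocyte genes 11.28 to 12.16 in the liver groups.

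In epididymal WAT the cell-cycle genes were higher in HFD than in ND after long feeding, with calls in each of the 5 roles. At 20 weeks 21 of 36 genes were higher in HFD and 0 were lower, while 3.85% of all probes were higher and 3.54% lower (limma, Benjamini-Hochberg adjusted over 45281 probes, adjusted p under 0.05). At 24 weeks 22 of 36 were higher and 0 lower, while 5.99% of all probes were higher and 4.51% lower. The methods' t-test called 25 and 24 genes higher at an unadjusted p under 0.05, and 3 and 1 after Benjamini-Hochberg adjustment. The median log2 difference over the 36 genes was 0.57 at 20 weeks and 0.67 at 24 weeks, and over all probes it was within 0.0027 of 0 at both. The mean log2 intensity of the 36 genes was 8.35 in HFD pools at 20 weeks (8.28 to 8.41), against 7.73 in ND pools (7.69 to 7.76), and 8.42 in HFD pools at 24 weeks (8.36 to 8.49), against 7.71 in ND pools (7.62 to 7.82). These ranges did not overlap.

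A set of 17 genes was higher at both weeks, and 26 at 20 or 24 weeks. Pcna, Tyms, Nusap1 and Tpx2 passed at 20 weeks only, and Mcm4, Rrm1, Plk1, Cdc20 and Kif11 at 24 weeks only. The 20-week and 24-week effects were not tested against each other. Among the genes called, log2 differences ran from 0.32 (Rrm2) to 1.69 (Tk1) at 20 weeks and from 0.50 (Mcm4) to 1.97 (Prc1) at 24 weeks. They exceeded 2-fold in 9 and 11 genes. The 3 HFD pools lay above the 3 ND pools for 30 genes at 20 weeks and for 24 at 24 weeks, and below them for 1 gene at 24 weeks, Cenpe, which was not detected. The share of all probes with pools so apart is not given here, and the counts describe these genes only. The 7 genes that were detected on no array had differences between -0.15 and 0.15 at both weeks and were not called.

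**Figure D1:**
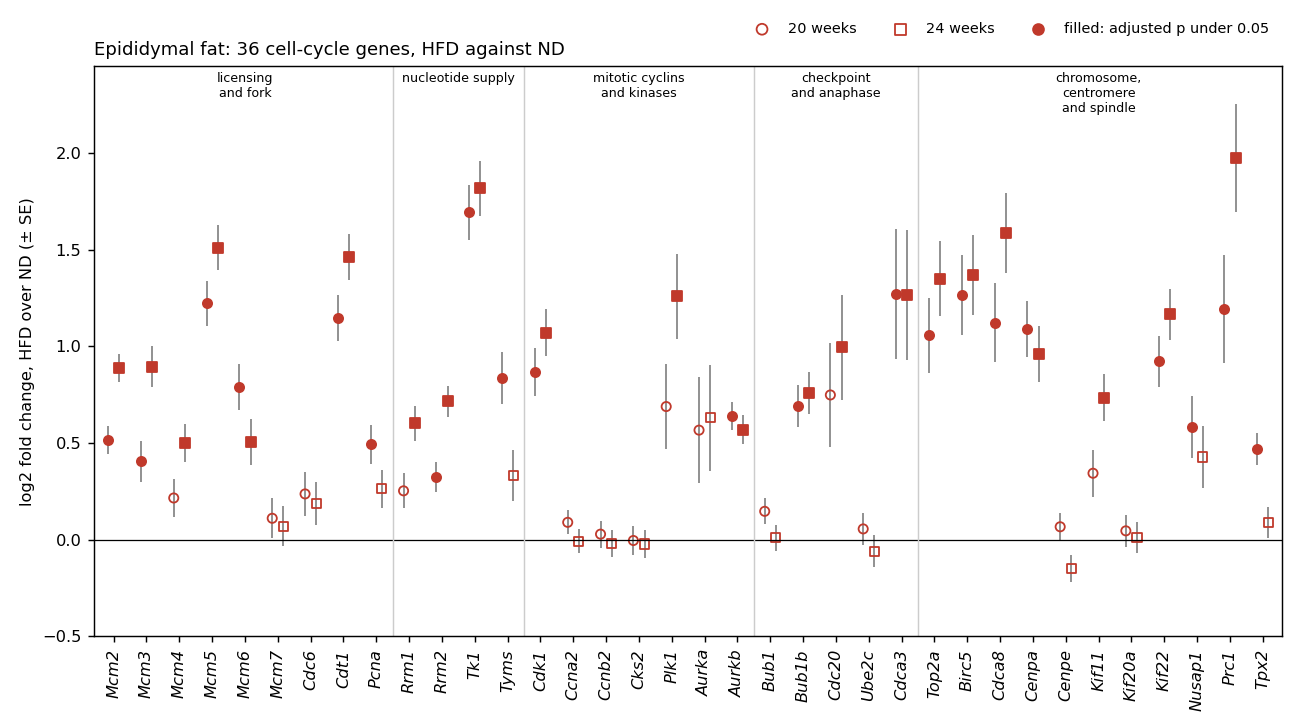
Log2 difference of HFD over ND (y axis, ± standard error of the fit) for 36 cell-cycle genes in epididymal WAT, ordered by role along the x axis, at 20 weeks (circles) and 24 weeks (squares), filled where the adjusted p was under 0.05. Filled points lie between 0.32 and 1.97 and the genes that were never detected lie near 0.

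Of the 9 licensing and fork genes 6 were higher at 20 weeks and 6 at 24 weeks. Mcm5, a subunit of the Mcm2-7 helicase, had log2 intensities of 9.60, 9.48 and 9.55 in HFD pools at 20 weeks, against 8.28, 8.29 and 8.39 in ND pools. At 24 weeks the HFD pools had 10.25, 10.94 and 10.54, against 9.18, 9.01 and 9.01 in ND pools. All HFD pools lay above all ND pools, by 1.22 ± 0.12 (SE, n = 3 pools each, limma adjusted p = 9.13e-08) and 1.51 ± 0.12 (adjusted p = 1.29e-09). In the 9 HFD pools of 2 to 8 weeks Mcm5 ran from 8.43 to 8.96, and in the 9 ND pools from 8.22 to 8.85. These ranges overlapped over the 3 early weeks, while at 8 weeks alone the HFD pools (8.43 to 8.70) lay above the ND pools (8.26 to 8.33).

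Cdt1, which brings the helicase to the origin, was read at 9.61, 9.39 and 9.75 in HFD pools at 20 weeks, against 8.43, 8.42 and 8.45 in ND pools. At 24 weeks it was at 9.49, 9.90 and 9.46 in HFD pools, against 8.22, 8.09 and 8.15 in ND pools. The differences were 1.15 ± 0.12 (SE, limma adjusted p = 3.8e-07) and 1.46 ± 0.12 (adjusted p = 3.39e-09). Early HFD pools ran from 8.21 to 8.73 and early ND pools from 8.05 to 8.58, with overlap over the 3 weeks but none at 8 weeks (8.47 to 8.73 in HFD, 8.19 to 8.32 in ND).

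The other helicase subunits differed in size of change. Mcm2 and Mcm3 were 0.52 and 0.41 log2 units higher in HFD at 20 weeks and each 0.89 higher at 24 weeks, and Mcm4 was 0.50 higher at 24 weeks. Mcm7 was not called, with 0.11 and 0.07. Cdc6, which loads the helicase together with Cdt1, was not called either (0.24 and 0.19), and Pcna, the sliding clamp of the fork, was 0.49 higher at 20 weeks. The brightest Mcm6 probe was higher by 0.79 at 20 weeks and by 0.51 at 24 weeks, but it followed the array background: in ND pools it averaged 6.98 at 2 and 24 weeks and 9.12 at 4, 8 and 20 weeks. At 24 weeks no ND pool detected it, which makes that change at least 1.3-fold. Another Mcm6 probe, at 8.51 and 8.31 in the same pools, was 0.64 and 1.13 higher in HFD at 20 and 24 weeks.

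**Figure D2:**
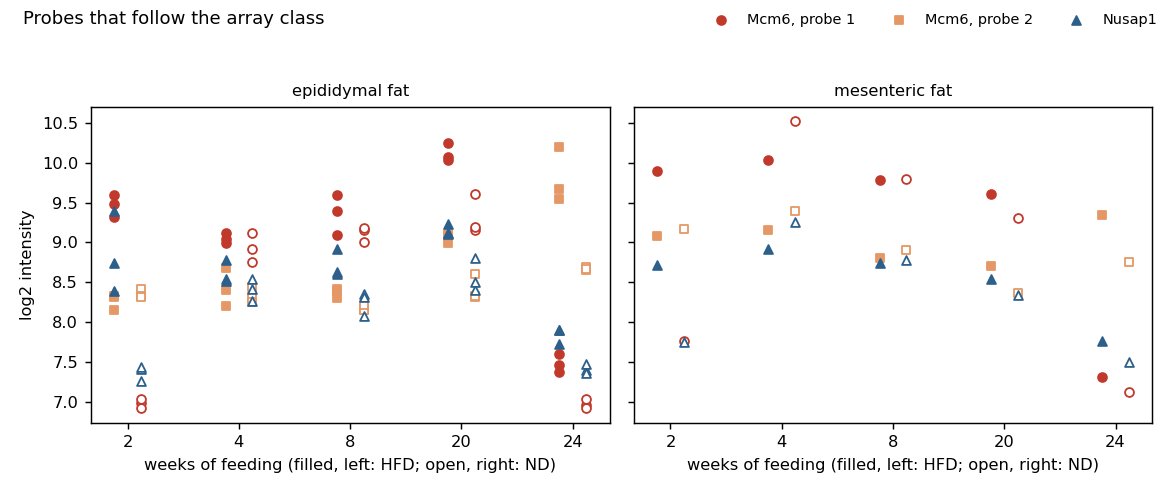
Log2 intensity (y axis) by weeks of feeding (x axis) of Mcm6 probe 1, Mcm6 probe 2 and Nusap1 in epididymal WAT (left, 3 pools per diet and week) and mesenteric WAT (right, 1 pool), with HFD filled and left of ND, which is open. Mcm6 probe 1 and Nusap1 are low in ND at 2 weeks and in both diets at 24 weeks, and Mcm6 probe 2 is not.

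Of the 4 genes of nucleotide supply 3 were higher at each of the 2 late weeks. Tk1, the thymidine kinase of S phase, was at 9.13, 8.94 and 9.04 in HFD pools at 20 weeks, against 7.18, 7.38 and 7.47 in ND pools, and at 9.42, 9.18 and 9.55 in HFD pools at 24 weeks, against 7.84, 7.58 and 7.29 in ND pools. It was higher in every HFD pool, by 1.69 ± 0.14 (SE, limma adjusted p = 1.33e-08) and 1.82 ± 0.14 (adjusted p = 1.72e-09), which were changes of 3.23-fold and 3.53-fold. Its early HFD pools ran from 7.51 to 8.06 and its early ND pools from 7.35 to 7.79, and at 8 weeks the pools were apart (7.95 to 8.05 in HFD, 7.37 to 7.69 in ND). A pair of dimmer Tk1 probes, detected on no array, differed by 0 and -0.03 at 20 weeks, and another, detected on 16 arrays, by 0.31 (adjusted p = 0.0262).

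Rrm2, the small subunit of ribonucleotide reductase, was dim. It was at 7.32, 7.41 and 7.24 in HFD pools at 20 weeks, against 7.00, 7.02 and 6.98 in ND pools, where no pool detected it. At 24 weeks the HFD pools had 7.64, 7.89 and 7.60, against 7.09, 6.99 and 6.90 in ND pools, again with no ND pool detected. The signal was therefore at least 1.21-fold higher in HFD at 20 weeks (limma adjusted p = 0.00967) and at least 1.53-fold higher at 24 weeks (adjusted p = 4.65e-07), with the lowest detected signal on each ND array as the floor. The 20-week call was lost without HFD pool 2 (0.28, adjusted p = 0.0649). Rrm1, the large subunit, was 0.60 higher at 24 weeks (adjusted p = 4.66e-05) and 0.25 at 20 weeks (adjusted p = 0.106), and Tyms, the thymidylate synthase, 0.84 higher at 20 weeks (adjusted p = 0.000149) and 0.33 at 24 weeks (adjusted p = 0.133).

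Of the 7 measured mitotic cyclins and kinases 2 were higher at 20 weeks and 3 at 24 weeks. Cdk1 had 8.89, 8.70 and 8.79 in HFD pools at 20 weeks, against 7.68, 7.86 and 8.24 in ND pools. At 24 weeks it had 8.67, 8.82 and 8.87 in HFD pools, against 7.76, 7.71 and 7.67 in ND pools. The HFD pools were above all ND pools, by 0.87 ± 0.12 (SE, limma adjusted p = 3.2e-05) and 1.07 ± 0.12 (adjusted p = 8.29e-07). Early HFD pools ran from 7.97 to 8.29 and early ND pools from 7.53 to 8.30.

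Aurkb, the kinase of the chromosomal passenger complex, was at 8.03, 7.84 and 8.00 in HFD pools at 20 weeks, against 7.32, 7.25 and 7.38 in ND pools, and at 7.69, 7.85 and 7.73 in HFD pools at 24 weeks, against 7.28, 7.22 and 7.07 in ND pools. These groups did not overlap, and the differences were 0.64 ± 0.07 (SE, limma adjusted p = 1.56e-06) and 0.57 ± 0.07 (adjusted p = 4.71e-06). Plk1, a kinase of mitotic entry and spindle poles, was 1.26 higher at 24 weeks (adjusted p = 0.000236) and 0.69 at 20 weeks (adjusted p = 0.0561). Aurka, the spindle pole kinase, was at 0.57 and 0.63 and was not called. Both change without HFD 2-week pool 1, as given below. The cyclins Ccna2 and Ccnb2 and the Cdk1 partner Cks2 were not detected on any array.

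Of the 5 checkpoint and anaphase genes 2 were higher at 20 weeks and 3 at 24 weeks. Bub1b, a kinase-like protein of the spindle checkpoint, was at 9.01, 8.89 and 8.84 in HFD pools at 20 weeks, against 8.12, 8.20 and 8.35 in ND pools. At 24 weeks it was at 8.82, 9.13 and 8.95 in HFD pools, against 8.34, 8.29 and 7.99 in ND pools. The diets did not overlap at either week and differed by 0.69 ± 0.11 (SE, limma adjusted p = 0.00012) and 0.76 ± 0.11 (adjusted p = 2.06e-05).

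Cdca3, which acts at entry into mitosis, was at 9.44, 8.98 and 9.29 in HFD pools at 20 weeks, against 7.76, 8.04 and 8.10 in ND pools, and at 9.77, 9.37 and 9.96 in HFD pools at 24 weeks, against 8.67, 8.38 and 8.24 in ND pools. Its log2 difference was 1.27 ± 0.34 at both weeks (SE, limma adjusted p = 0.0188 and 0.014). The wide error came with HFD 2-week pool 1, where Cdca3 stood at 10.28 beside 7.96 and 8.14 in the other pools of that group. Cdca3 was not called at 20 weeks without HFD pool 1, HFD pool 3 or ND pool 1 (1.17 to 1.24), nor at 24 weeks without HFD pool 3 or ND pool 3 (1.14 and 1.17). Cdc20, which activates the anaphase-promoting complex, was 0.99 higher at 24 weeks (adjusted p = 0.0165) and 0.75 at 20 weeks (adjusted p = 0.105).

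The chromosome, centromere and spindle genes had the most calls, with 8 of 11 higher at 20 weeks and 7 of 11 at 24 weeks. Kif22, a kinesin that moves chromosome arms, was at 9.24, 9.00 and 9.06 in HFD pools at 20 weeks, against 7.98, 8.28 and 8.28 in ND pools. At 24 weeks it was at 9.31, 9.45 and 9.39 in HFD pools, against 8.50, 8.21 and 7.95 in ND pools. Every HFD pool exceeded every ND pool, by 0.92 ± 0.13 (SE, limma adjusted p = 3.54e-05) and 1.17 ± 0.13 (adjusted p = 6.95e-07).

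Cdca8, the borealin subunit of the passenger complex, was at 8.91, 8.60 and 8.70 in HFD pools at 20 weeks, against 7.60, 7.62 and 7.62 in ND pools. The HFD pools of 24 weeks had 9.67, 10.005 and 9.70, against 8.47, 8.13 and 8.01 in ND pools. The differences were 1.12 ± 0.21 (SE, limma adjusted p = 0.000704) and 1.59 ± 0.21 (adjusted p = 5.34e-06), with no overlap. Its partner Birc5 (survivin) was 1.27 and 1.37 higher at 20 and 24 weeks, so that Aurkb, Cdca8 and Birc5 of this complex were all called at both weeks. Prc1, which bundles the midzone microtubules, was 1.19 and 1.97 higher, Top2a, which untangles DNA, 1.06 and 1.35, and Cenpa, the histone of the centromere, 1.09 and 0.96. Kif11, the motor that separates the spindle poles, was 0.74 higher at 24 weeks. Nusap1 and Tpx2, which act on spindle microtubules, were 0.58 and 0.47 higher at 20 weeks, where no ND pool detected Tpx2, so that it was at least 1.14-fold higher. At 24 weeks Tpx2 was detected in no pool of either diet, and the Nusap1 probe shared the low signal of the brightest Mcm6 probe on the arrays with a high background.

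**Figure D3:**
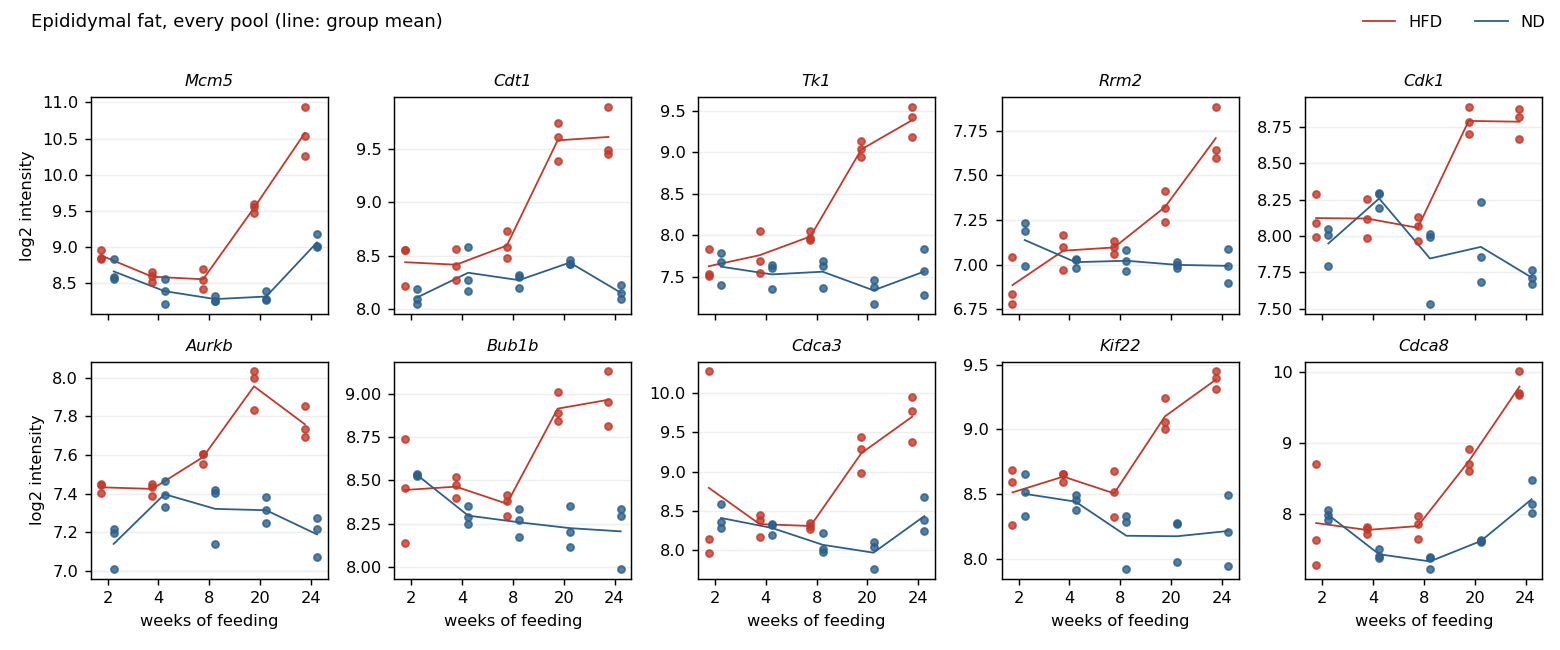
Log2 intensity (y axis) against weeks of feeding (x axis) of 10 cell-cycle genes in epididymal WAT, every pool a point, HFD left of ND, with lines through the group means. HFD and ND points are apart at 20 and 24 weeks in all 10 panels, and the raised HFD point of Cdca3 and Cdca8 at 2 weeks is pool 1.

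Genes of the pathway outside the list moved in part. Of 31 other DNA replication genes 8 were higher at 20 weeks and 10 at 24 weeks, with 0 lower, among them Fen1, which trims Okazaki fragments (0.88 and 1.00), Chaf1b of the chromatin assembly factor (0.69 and 1.13) and Mcm10 (0.64 and 0.84). Of 32 other mitosis genes 12 and 11 were higher and 0 lower, with Mad2l1 of the checkpoint at 0.95 and 0.90 and Incenp, the scaffold of the passenger complex, at 0.79 and 0.93. Their medians were 0.16 and 0.12 for replication and 0.17 and 0.18 for mitosis, below those of the 36 genes. Of 15 E2F, pocket protein and FoxM1 regulators 2 and 3 were higher, with E2f1 at 0.50 and 0.60 at both weeks, E2f3 at 0.33 at 20 weeks, and Mybl2 and Foxm1 at 0.59 and 0.41 at 24 weeks. Of 9 G1 cyclins and kinases 2 and 3 were higher, Ccne1 and Cdk4 at 20 weeks and Ccnd1 (0.81), Cdk6 and Cdk4 at 24 weeks, while Ccnd3 fell by 0.36 and by 0.43. Of 7 CDK inhibitors Cdkn2b was 0.52 higher at 20 weeks, and at 24 weeks Cdkn1a was 1.12 higher and Cdkn2c lower at -1.11.

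Macrophage transcripts rose in the same comparisons. Of 14 macrophage genes, 1 of them detected on no array, 10 were higher and 1 lower (Cd163) at 20 weeks and 11 higher and 1 lower (Cd163) at 24 weeks. Their mean log2 intensity was 10.31 in HFD pools at 20 weeks (10.27 to 10.33), against 9.48 in ND pools (9.33 to 9.57), and 9.83 in HFD pools at 24 weeks (9.76 to 9.89), against 8.98 in ND pools (8.92 to 9.02). Of 9 genes of lipid-associated macrophages 6 and 5 were higher, with Trem2 at 3.78 and 3.58. Their mean was 11.69 in HFD, against 10.23 in ND, at 20 weeks and 11.38 in HFD, against 10 in ND, at 24 weeks. Adipocyte genes fell for 2 of 10 at 20 weeks (Cidec and Lipe) and for 6 of 10 at 24 weeks, and 3 of 7 mesothelial genes, all keratins, fell at 20 weeks. Of 9 T cell genes none was called at either week, and B cell genes were at 7.10 in HFD and 7.06 in ND at 20 weeks. The part of these cell types in the change of the cell-cycle genes was not tested.

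At the early weeks fewer cell-cycle genes passed the test. At 4 weeks 0 of 36 genes were called (0.272% of all probes higher and 0.139% lower), with 1 higher (Mcm2) and 1 lower (Mcm7) at an unadjusted p under 0.05 in limma. At 8 weeks 0 were called (0.517% of all probes higher and 0.192% lower) and the smallest adjusted p was 0.0958, for Aurkb, but 34 of 36 differences were above 0, with a median of 0.22, and 13 genes were higher and 1 (Mcm7) lower at an unadjusted p under 0.05. The HFD pools lay above the ND pools for 21 genes at 8 weeks and below them for 1, and for 6 and 1 genes at 4 weeks. With week 8 fitted alone 10 were called higher and 1 lower. The share of all probes is not given here for the differences above 0, the pools apart or this fit. At 2 weeks 12 genes were higher and 3 lower (Mcm2, Rrm1 and Rrm2), while 14.5% of all probes were higher and 21.7% lower. The share of members is above the higher background and below the lower one, and the 2-week ND arrays were of the other array kind. Some genes called at 2 weeks also differed between the high-background and the other ND arrays. The ND 2-week arrays enter both differences, so that opposite signs are partly built in and the values are a description. The high-background minus other difference was -2.14 for Mcm6, which was at least 5.08-fold higher in HFD at 2 weeks with no ND pool detected, -1.02 for Nusap1 (2-week difference 1.47) and -0.47 for Cdc6 (0.57). It was 0.41 for Mcm2 (2-week difference -0.40) and 0.42 for Rrm1 (-0.49). For some other genes called at 2 weeks it was small: 0.06 for Rrm2 (-0.25), 0.03 for Cks2 (0.22) and -0.09 for Pcna (0.33). These were dim: Cks2 was detected on no epididymal array, Pcna on 9 and Rrm2 on 12. A dimmer Rrm2 probe, detected on 2 arrays, went the other way at 2 weeks (0.55, limma adjusted p = 3.24e-05). The other Mcm6 probe had a 2-week difference of -0.09.

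Pool 1 of HFD 2 weeks, which held the testis transcripts, was high for several mitotic genes. Cdc20 was at 10.05 in it, beside 8.17 and 8.40 in HFD pools 2 and 3 and 8.24 to 8.40 in ND pools, and Aurka at 9.33, beside 7.44 and 7.50 and 7.61 to 7.89. Plk1, Cdca3, Prc1, Cdca8, Birc5, Top2a and Nusap1 stood out in the same pool, while Mcm5, Cdt1 and Tk1 had their lowest HFD value of the week there. Without this pool, an analysis chosen after seeing the data, 9 genes were higher and 5 lower at 2 weeks, and 24 of 36 were higher at 20 weeks and 24 at 24 weeks, with Plk1, Aurka and Cdc20 added at 20 weeks and Aurka and Nusap1 at 24 weeks. Aurka was then called with the same log2 differences of 0.57 (adjusted p = 0.000186) and 0.63 (adjusted p = 3.03e-05).

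The diet effect itself changed with time. Setting the mean effect of 20 and 24 weeks against that of 4 and 8 weeks, 22 of 36 genes had a larger effect late and 0 a smaller one, while 3.96% of all probes had a larger and 2.88% a smaller effect. The increase was 1.43 ± 0.14 for Tk1 (SE, limma adjusted p = 1.98e-07), 1.13 ± 0.12 for Mcm5 and 1.11 ± 0.12 for Cdt1. Mcm7 was called here at 0.42 because its effects at 4 and 8 weeks, -0.38 and -0.27, were below 0. Leaving out replicate 1, 2 or 3 of every group left 21, 13 and 10 genes. The interaction of diet with week over the 5 weeks was called for 25 genes and for 29.0% of all probes. Without replicate 1, 2 or 3 it was called for 26, 17 and 12 genes, and without the 2-week arrays for 21.

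Within the HFD groups, 22 of 36 genes were higher at 20 than at 4 weeks and 0 were lower, while 8.69% of all probes were higher and 8.21% lower. Without HFD 20-week pool 1 the count was 12. In ND pools 1 gene, Mcm6, was higher at 20 than at 4 weeks and 0 were lower, against 3.37% and 2.41% of all probes. ND at 24 against 2 weeks, a comparison within the high-background arrays, gave 2 higher (Mcm5, 0.40, and Tyms, 0.43) and 0 lower, against 4.16% and 4.92%. The array runs of the weeks are not given in the sources used here, so that a change between weeks and a difference between array runs cannot be told apart.

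In liver 2 to 11 of the 36 cell-cycle genes were called higher in HFD at each week, and those of 2 and 4 weeks were Mcm5 and Mcm4. The helicase subunits Mcm5, Mcm4, Mcm2 and Mcm6 were called at the most weeks, while Mcm3 was called at 1 week and Mcm7 at none. The liver values were the authors' normalized log2 values, and no detection p-values were used for them. At 2 weeks 2 of 36 genes were higher and 0 lower (1.05% of all probes higher, 0.760% lower), at 4 weeks 2 and 0 (1.56%, 1.08%), at 6 weeks 5 and 0 (3.98%, 3.45%) and at 8 weeks 11 and 0 (2.19%, 1.42%). At 12 weeks 3 were higher and 0 lower (0.711%, 0.446%), at 16 weeks 9 and 1 (3.45%, 2.67%), at 20 weeks 7 and 0 (1.77%, 1.01%) and at 24 weeks 6 and 1 (2.99%, 2.09%). Leaving out single arrays moved these counts, from 7 at 20 weeks to between 2 and 4 without any of the 6 arrays, and from 6 at 24 weeks to 11 without ND replicate 1 and 3 without HFD replicate 3. The count was 3 at 6 weeks without HFD replicate 2, ND replicate 1 or ND replicate 2, and 6 at 8 weeks without HFD replicate 3. At 12 weeks it was 0 without HFD replicate 1 and 1 without HFD replicate 2, ND replicate 1 or ND replicate 3, and at 16 weeks it was 5 without HFD replicate 1 or ND replicate 3.

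Mcm5 and Mcm4 were called in all 8 weeks, Mcm2 in 6 and Mcm6 in 5. At 8 weeks Mcm5 was at 8.32, 8.40 and 8.50 in HFD livers, against 7.42, 7.54 and 7.56 in ND livers, and the difference was 0.90 ± 0.11 (SE, n = 3 each, limma adjusted p = 2.58e-07). HFD group means of Mcm5 ran from 8.22 to 8.41 over the weeks, against 7.48 to 7.84 in ND, so that the ranges of means were apart. Mcm4 was at 9.44, 9.35 and 9.38 in HFD livers at 8 weeks, against 8.59, 8.77 and 8.65 in ND livers (0.72 ± 0.09, adjusted p = 2.6e-07). At 16 weeks Mcm4 was at 10.15, 9.81 and 9.80 in HFD livers, against 9.24, 9.26 and 9.22 in ND livers (0.68 ± 0.09, adjusted p = 6.83e-07). Mcm2 was at 8.17, 7.94 and 7.89 in HFD livers at 16 weeks, against 7.48, 7.41 and 7.39 in ND livers (0.57 ± 0.08, adjusted p = 4.09e-06). All 3 subunits stood clear of the ND arrays at those weeks. HFD replicate 1 of 16 weeks, which gave the highest Mcm4 and Mcm2 values, stood apart along principal component 3 (58.7, against 5.1 and 9 in the other replicates). ND replicate 1 of 8 weeks, with the lowest Mcm5 and Mcm4 values of its group, stood apart too (26.2, against -4.7 and -4.1).

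Taking the mean diet effect over the 8 weeks, a contrast added after seeing the data, 20 of 36 genes were higher and 1 lower, while 7.22% of all probes were higher and 7.43% lower, and the median over the 36 genes was 0.10. The mean effects were 0.69 ± 0.04 for Mcm5, 0.49 ± 0.03 for Mcm4, 0.42 ± 0.05 for Prc1, 0.38 ± 0.03 for Mcm2 and 0.33 ± 0.04 for Mcm6 (SE). By role, 6 of 9 licensing genes, 4 of 7 cyclins and kinases, 3 of 5 checkpoint genes and 7 of 11 chromosome and spindle genes were higher. Of the 4 genes of nucleotide supply none was higher and Tk1 was lower, at -0.18 ± 0.04 (adjusted p = 0.00197). Of the 20 genes 19 were also higher in epididymal WAT at 20 or 24 weeks, which was 95% of the liver genes and 73.1% of the 26 genes of epididymal WAT. Of all 36 genes 26 were higher in epididymal WAT at these weeks. The overlap over all probes is not given here, and a shared response was not tested.

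Tk1 was the gene that went the other way. In HFD livers at 16 weeks it was at 8.70, 9.15 and 9.00, against 9.44, 9.51 and 9.22 in ND livers (-0.44 ± 0.12, limma adjusted p = 0.0185), and at 24 weeks at 9.37, 9.07 and 9.44, against 9.60, 9.74 and 9.73 (-0.40 ± 0.12, adjusted p = 0.0444). The call at 16 weeks was lost without HFD replicate 1, ND replicate 1 or ND replicate 2, and at 24 weeks without HFD replicate 1 or 2 or ND replicate 1 or 2. In epididymal WAT the same probe was 1.69 and 1.82 higher at 20 and 24 weeks.

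The interaction of diet with week in liver was called for 1 gene, Aurka (limma adjusted p = 0.0423), and for 5.37% of all probes. Of 31 other DNA replication genes 12 were higher and 1 lower (Mcm10, -0.26) in the mean effect, with Fen1 at 0.33 and Lig1 at 0.31, and Ccnd1, the cyclin of G1 entry, and E2f1 were at 0.68 and 0.43. Macrophage genes moved with the liver diet too: 10 of 14 were higher and 1 lower, 5 of 6 Kupffer cell genes were higher, and the macrophage list ran from 8.46 to 9.14 in HFD group means and from 7.99 to 8.48 in ND group means. Their part in the result was not tested.

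**Figure D4:**
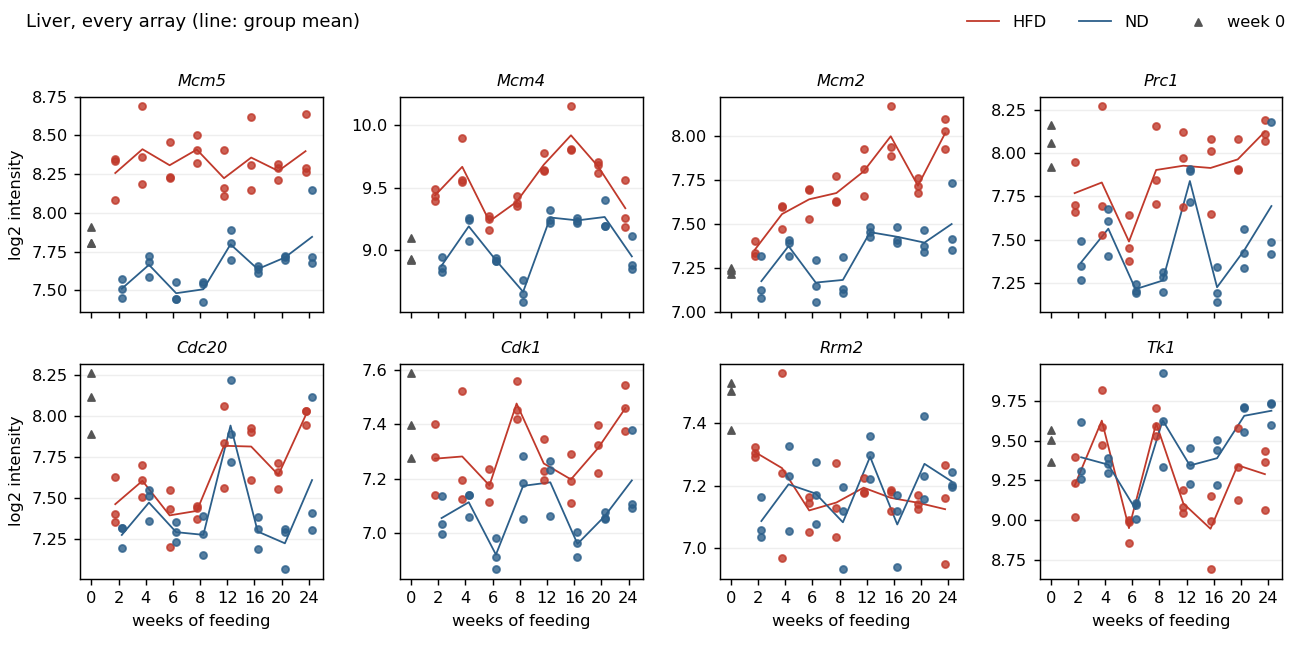
Log2 intensity (y axis) against weeks of feeding (x axis) of 8 cell-cycle genes in liver, every array a point, HFD left of ND, triangles for the 3 baseline arrays of week 0, with lines through the group means. HFD points lie above ND points at nearly all weeks for Mcm5, Mcm4 and Mcm2, and Tk1 lies lower in HFD at 16 and 24 weeks.

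Under the ND, cell-cycle genes of both replication and mitosis were lower in liver at 8 weeks than at week 0. At 2 weeks 0 of 36 genes were higher and 10 lower than at week 0, while 2.89% of all probes were higher and 2.76% lower. At 8 weeks 1 was higher (Pcna, 0.54) and 17 lower, while 9.04% and 9.28% of all probes were higher and lower. The genes lower at 2 weeks were 0 of 9 licensing genes, 1 of 4 genes of nucleotide supply (Rrm2), 3 of 7 cyclins and kinases, 2 of 5 checkpoint genes and 4 of 11 chromosome and spindle genes. At 8 weeks they were 3 of 9, 2 of 4, 3 of 7, 3 of 5 and 6 of 11 in the same order. At 24 weeks 1 was higher (Mcm2, 0.265) and 3 lower (Cdc6, Cdc20 and Nusap1), against 7.73% and 7.43%. The count of 10 at 2 weeks was 6 without baseline replicate 2, and the count of 3 at 24 weeks was 8 without ND replicate 1, 0 without ND replicate 2 1 without ND replicate 3 or baseline replicate 1 and 5 without baseline replicate 3.

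Cdc20 had the largest fall among the cell-cycle genes at 2 weeks. It was at 7.19, 7.32 and 7.32 in ND livers at 2 weeks, against 8.26, 8.12 and 7.89 at week 0 (-0.82 ± 0.14, limma adjusted p = 6.87e-05), and at 8.12, 7.30 and 7.41 at 24 weeks (-0.48 ± 0.14, adjusted p = 0.00992). Prc1 was at 7.26, 7.35 and 7.49 in ND livers at 2 weeks, against 8.06, 8.17 and 7.92 at week 0, and at 8.18, 7.49 and 7.42 at 24 weeks. ND replicate 1 of 24 weeks was thus near the week 0 level for both, unlike the other replicates. Cdk1 was at 7.03, 7.00 and 7.14 at 2 weeks and 7.38, 7.09 and 7.11 at 24 weeks, against 7.40, 7.59 and 7.28 at week 0, and Rrm2 at 7.06, 7.16 and 7.04 at 2 weeks and 7.20, 7.24 and 7.20 at 24 weeks, against 7.53, 7.38 and 7.50. Neither was called at 24 weeks. Mcm2 was at 7.73, 7.41 and 7.35 at 24 weeks, against 7.22, 7.24 and 7.25 at week 0 (0.265 ± 0.08, adjusted p = 0.0189).

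The arrays of different weeks also differed over all probes. The main principal component of liver held 25% of the variance and separated weeks in both diets, so that an age effect and an array effect cannot be told apart. Exocrine pancreas transcripts were at 7.93 at week 0 (7.82 to 8.04) and reached 9.51 in an ND array of 8 weeks, while the other liver group means were 7.26 to 7.42. Their part in the week 0 difference was not tested.

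In mesenteric WAT, with 1 array per diet and week, no cell-cycle gene passed the test. In a fit over all 5 weeks 0 probes of the array were called (0% in either direction), and of the 36 genes 28 had a mean difference above 0 and 3 (Mcm4, Cdt1 and Cenpa) were higher at an unadjusted p under 0.05 in limma, with 0 lower, while 2.98% of all probes were higher at that level. The smallest adjusted p of a member was 0.812. Mcm4 was at 11.04, 11.30, 11.10, 10.46 and 11.32 in HFD pools at 2, 4, 8, 20 and 24 weeks, against 11.03, 11.22, 10.75, 10.12 and 10.94 in ND pools, and was higher in HFD in 5 of 5 weeks (mean 0.23 ± 0.07, SE). Cdt1 was at 10.05, 10.14, 9.73, 9.02 and 9.78 in HFD pools, against 9.63, 10.13, 9.51, 8.86 and 9.06 in ND pools (0.31 ± 0.10), and Cenpa at 11.41, 11.54, 10.99, 10.47 and 11.30, against 11.19, 11.62, 10.67, 10.04 and 10.39 (0.36 ± 0.13). The 4-week pair was the one in which Cenpa was not higher in HFD.

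Mcm6 and Nusap1, the other named genes of mesenteric WAT, had their mean differences of 0.43 ± 0.35 and 0.21 ± 0.17 mainly from week 2. Mcm6 was at 9.90, 10.03, 9.78, 9.61 and 7.31 in HFD pools, against 7.76, 10.52, 9.79, 9.31 and 7.13 in ND pools, and Nusap1 at 8.72, 8.93, 8.74, 8.54 and 7.76, against 7.75, 9.25, 8.79, 8.34 and 7.50. The ND pool of 2 weeks and both pools of 24 weeks had an array background of 108 to 122 intensity units, against 81.3 to 84.8 on the other arrays, and these were the arrays with low values of both probes. Over 2-fold, 1 gene (Mcm6) was higher and 0 lower at 2 weeks, while 1.59% and 0.819% of all probes were higher and lower. No member passed 2-fold at 4 weeks (0.464% and 0.0309% of all probes), 8 weeks (0.130% and 0.665%), 20 weeks (0.0751% and 0.570%) or 24 weeks (1.21% and 0.846%).

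The mesenteric level also differed between weeks. All 25 genes that were detected on all 10 arrays were lower at 20 than at 4 weeks in both diets, with a median of -0.54 in HFD and -1.0 in ND. Over all probes these medians were 0.005 in HFD and -0.003 in ND. The 36 genes differed by a median of 0.35 between HFD and ND at 24 weeks, with 34 of 36 higher in HFD, and by -0.18 at 4 weeks, with 3 of 36 higher. Of all 45281 probes 22040 were higher in HFD at 24 weeks (median -0.0052) and 20986 at 4 weeks (median -0.013). B cell genes were at 8.52 in HFD and 8.08 in ND at 20 weeks and at 10 in HFD and 10.11 in ND at 4 weeks, and at 24 weeks at 10.23 in HFD and 9.30 in ND. T cell genes were at 8.73 in HFD and 8.17 in ND at 20 weeks, and 9.74 in HFD and 9.91 in ND at 4 weeks. Exocrine pancreas genes were at 15.06 in the HFD pool and 15 in the ND pool of 2 weeks, and skeletal muscle genes at 12.65 in the ND pool of 2 weeks. Intestinal epithelium genes also separated the diets, in changing directions. Their mean was higher in the HFD pool of week 4 (9.77, ND 7.25) and of week 24 (9.93, ND 8.11). It was lower in the HFD pool of week 8 (7.1, ND 9.92) and of week 20 (10.05, ND 10.81), and similar in week 2 (8.29, ND 8.21). The part of lymphoid tissue, intestinal epithelium, pancreas or muscle in these differences was not tested.

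**Figure D5:**
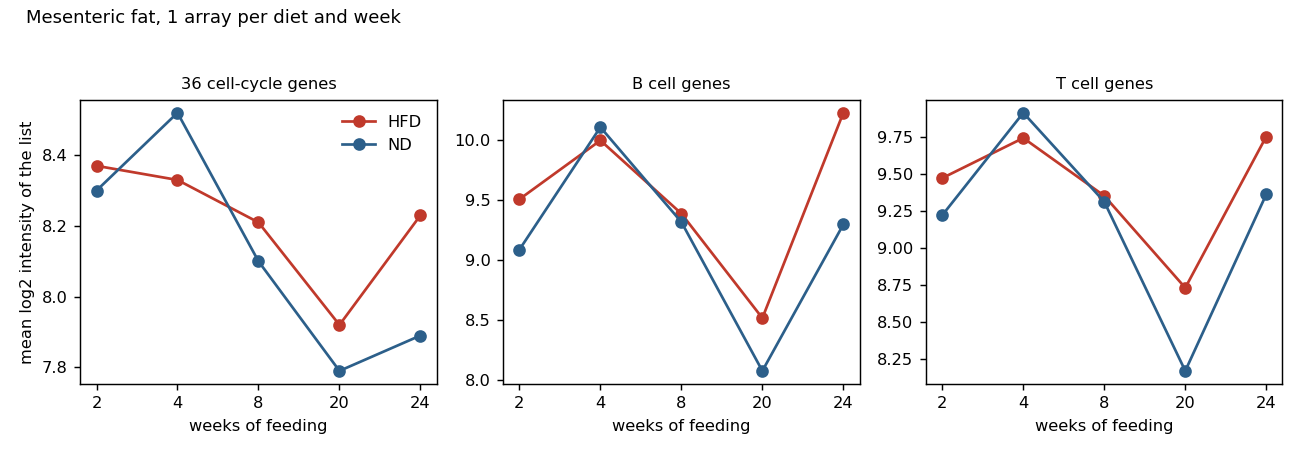
Mean log2 intensity (y axis) of the 36 cell-cycle genes, of 6 B cell genes and of 9 T cell genes in mesenteric WAT against weeks of feeding (x axis), 1 pool per point, HFD in red and ND in blue. All 3 lists are lowest at 20 weeks in ND, and HFD lies above ND at 20 and 24 weeks.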

How the data were processed

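RNA of epididymal WAT, mesenteric WAT and liver was hybridised to Illumina MouseWG-6 v2 arrays (45281 probes, of which 34885 had 1 gene symbol in the probe table, 18 several and 10378 none). For the adipose tissues the authors deposited probe intensity values that were not normalized, with a detection p-value for each probe and array. For liver the authors deposited log2 values after quantile normalization, without detection p-values used here. The submitters' processing notes name BeadStudio 3.1.3 and R 2.4.1.

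Adipose intensities were quantile normalized within each tissue and log2 transformed, without a filter, and each tissue was fitted separately with limma 3.58.1 in R 4.3.3 (lmFit, eBayes) over all of its groups. Liver values were fitted as deposited. Genes were called at a Benjamini-Hochberg adjusted p under 0.05 over all 45281 probes, with no fold threshold. An exact test of 3 against 3 arrays cannot go below p = 0.1, and the number of arrays limits the precision. The mesenteric fit took the 5 weeks as blocks, with 1 array per diet and week.

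Each gene was read from the probe with the highest mean log2 value in the tissue. Values of every array are given for the 2 genes of each role with the smallest adjusted p at 24 weeks in epididymal WAT, for the gene of each role with the largest change between ND at 24 weeks and week 0 and the 3 genes with the smallest adjusted p in liver, and for the 5 genes with the largest mean difference in mesenteric WAT. Genes called against the main direction and the leading pathway genes are named too. The genes, lists and tests were chosen with earlier results of these data known. The script was tested on simulated data. Promoter windows came from RefSeq. Alternatives were other normalizations, thresholds, probes and tests, a replicate block, weeks fitted alone and each replicate left out.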

Additional observations from a re-analysis of the deposited data

Results flagged for a closer look

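In epididymal WAT the diet effect differed between feeding times by a test of the difference itself (limma). The late effect exceeded the early effect for 22 of 36 genes and for 3.96% of all probes, and for 10 to 21 genes without a replicate of every group. The diet by week interaction was called for 25 genes and for 29.0% of all probes, for 12 to 26 genes without a replicate of every group, and for 21 without the 2-week arrays, at which diet and array kind cannot be told apart. In liver the interaction was called for 1 gene and for 5.37% of all probes. The genes named next were chosen by their adjusted p at 24 weeks, which is part of the late effect, so that their values are a description. Their late minus early difference on the log2 scale was 1.43 for Tk1, 1.13 for Mcm5, 1.12 for Cdca3, 1.11 for Cdt1, 0.93 for Cdk1 and for Cdca8, 0.78 for Kif22, 0.59 for Bub1b, 0.46 for Aurkb and 0.45 for Rrm2.

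For 4 genes every HFD array lay on one side of the ND arrays in epididymal WAT and on the other side in liver at the same week. They were picked from all 36 genes at all shared weeks, and the share of all probes is not given here. The difference between the tissues was not tested. Tk1 at 24 weeks was at -0.4 in liver and 1.82 in epididymal WAT. Mcm7 at 8 weeks was at 0.27 in liver and -0.27 in epididymal WAT, and neither was called. Mcm2 at 2 weeks was at 0.18 in liver and -0.40 in epididymal WAT. The lowest HFD and the highest ND liver array of Mcm2 were both at 7.319 to 3 decimals. In epididymal WAT diet and array kind cannot be told apart at 2 weeks. The high-background ND arrays, which include the 2-week ND pools, were 0.41 above the others for Mcm2. Pcna at 8 weeks was at -0.11 in liver and 0.17 in epididymal WAT, and neither was called.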

How the results depend on the processing

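Of the counts recomputed under alternatives, 366 stayed within 1.5 times and 77 moved, and of the values of named genes in epididymal WAT 163 kept their direction and call, 14 lost the call and 3 changed sign or fell to 0. The 366 include counts of 0 that stayed at 0, such as some of those at 4 and 8 weeks in epididymal WAT, and their number is not given here. In epididymal WAT the methods' t-test after Benjamini-Hochberg left 4 genes higher after 2 weeks of feeding, 3 after 20 and 1 after 24; unadjusted it called 6 higher and 1 lower at 4 weeks, 16 and 1 at 8 weeks, and 1 lower at 24 weeks. A log2 difference over 1 left 2 higher and 0 lower at 2 weeks, 9 higher at 20 weeks and 11 at 24 weeks, and 0 in either direction in liver at each of the 8 weeks. Median scaling gave 5 lower at 2 weeks, and counting any probe of a gene 9 lower at 2 weeks and 1 lower for ND at 24 against 2 weeks. With a week fitted alone, 10 were higher and 1 lower at 8 weeks in epididymal WAT, and in liver 5 higher at 2 weeks, 8 higher and 1 lower at 6 weeks, and 0 in either direction at 16 weeks. The mean liver effect exceeded 0.5 for 1 gene, the liver interaction was called for 2 genes without the 3 arrays that stood apart, and the mesenteric count at an unadjusted p was 3. Those 3 liver arrays were HFD replicate 2 of 4 weeks, ND replicate 1 of 8 weeks and HFD replicate 1 of 16 weeks. Dimmer probes gave 0 and -0.03 for Tk1 at 20 weeks and -0.1 for Rrm2 at 24 weeks, and these were detected on 0 to 2 of 30 arrays. The shares of all probes under the alternatives of this section are not given here, and the cause of the other moves was not tested.

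Replicates of the same number did not pair: their deviations correlated between -0.32 and 0.31 over 15 pairs in epididymal WAT and between -0.28 and 0.18 over 24 pairs in liver. With the replicate number as a block, 18 genes had a larger late effect, 21 an interaction, 4 were higher in liver at 20 weeks, 0 were lower at 24 weeks and 0 had a liver interaction.

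Leaving out each replicate in turn gave, in epididymal WAT, 8 to 12 higher and 2 to 5 lower at 2 weeks, 18 to 24 higher at 20 weeks, 20 to 24 at 24 weeks, 12 to 19 for HFD at 20 against 4 weeks, 0 to 1 lower for ND at 20 against 4 weeks, and, without a replicate of every group, 10 to 21 for the late effect and 12 to 26 for the interaction, which was 29 without HFD 2-week replicate 1 alone. In liver it gave 2 to 2 higher at 2 weeks, 2 to 3 at 4 weeks, 3 to 5 at 6 weeks, 6 to 10 at 8 weeks, 0 to 3 at 12 weeks, 5 to 11 higher and 0 to 2 lower at 16 weeks, 2 to 4 at 20 weeks, and 3 to 11 higher and 0 to 1 lower at 24 weeks. Against week 0 it gave 6 to 11, 13 to 18 and 0 to 8 lower at 2, 8 and 24 weeks.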
